A study of Homo sapiens with 4 samples.

Results

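Integrins and laminins were examined as a group of 35 genes, out of 61541 genes in the count table, in RNA sequencing of cadmium-resistant and control MDA-MB-231 cells. The genes were chosen by name, as 17 integrin alpha subunits, 8 integrin beta subunits and 10 laminin chains, and each name matched 1 Ensembl gene in the table. MDA-MB-231 is an established human breast cancer line of mesenchymal appearance. The cadmium group had been passaged long term in medium with CdSO4, raised stepwise to 10 µM, and the control group was the same line, labelled as untreated. Each group had 2 libraries. The labels call the controls biological replicates and the cadmium libraries replicates. No source says whether the cadmium libraries came from separately selected cultures. P-values therefore set a difference against the spread between these libraries, which may be technical for the cadmium pair.

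Integrins are the receptors that attach cells to the extracellular matrix. Each is a pair of 1 alpha and 1 beta subunit, and the pair decides the ligand: α3β1, α6β1 and α6β4 bind laminins, α1β1, α2β1 and α10β1 bind collagens, and α5β1 and the αv pairs bind fibronectin and related RGD proteins. Laminins are cross-shaped trimers of an alpha, a beta and a gamma chain that form the sheet of the basement membrane on which epithelial cells rest. In epithelia, α6β4 and laminins with α3 and β3 chains form hemidesmosomes, which tie the keratin skeleton to that sheet.

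The libraries held between 51934729 and 61916007 reads assigned to genes. Control libraries are called control 2 and control 3 after their columns, and cadmium libraries cadmium 1 and cadmium 2. Markers of the line were present, with VIM at normalized counts of 39062 to 51044 and AXL at 88802 to 96793, and ESR1 had at most 20 reads. Against the list, SPARC was low at 51.0 to 151. The 6 markers listed as low summed to 10311 and 7691 normalized counts in the controls and 6150 and 6437 in the cadmium libraries. Most of that was ERBB2, at 4584 to 6773, but others of the 6 were also present. This sum also hides single markers that split in opposite directions between the controls. Leukocyte markers summed to 2238 and 901 normalized counts in the controls and 4314 and 3656 in the cadmium libraries, mostly from LCP1, an actin bundler that carcinoma cells can also express. Of the others CD14 had 234 and 125 reads in the controls and 69 and 122 in the cadmium libraries, PTPRC had 2 and 135 in the controls and 37 and 43 in the cadmium libraries, SPI1 had at most 1 and CD3E had 0. Summed endothelial markers lay between 805 and 1092 and fibroblast markers between 1173 and 1714 over the 4 libraries. The endothelial sum hides single markers that split in opposite directions between the controls. DESeq2 called 225 of 19816 tested genes at an adjusted p-value below 0.1, a share of 1.14%, with 119 higher in cadmium (0.601%) and 106 lower (0.535%). With upper-quartile scaling the split was 152 higher and 88 lower. The quasi-likelihood test of edgeR called 0 of 19241 genes (0%), with 1506 at an unadjusted p-value below 0.05. A bulk library cannot tell fewer cells of a type from less RNA per cell.

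Of the 35 genes, 34 had at least 1 read, 29 passed the DESeq2 filter on low counts and 24 had normalized counts averaging at least 50. A single member was called, LAMB3, and it was higher in cadmium-resistant cells. No member was called lower. That is 3.45% of the 29 tested members against the 1.14% of all tested genes given above. At an unadjusted p-value below 0.05 there were 4 members, LAMB3, LAMA1, ITGB8 and ITGB3, or 13.8% of the tested members against 6.92% of all tested genes. By edgeR 0 members were called and 4 reached an unadjusted p-value below 0.05, LAMB3, LAMA1, LAMB1 and ITGB3. The median log2 fold change of cadmium over control (log2FC) of the tested members was 0.08, and that of all tested genes was -0.02.

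**Figure D1:**
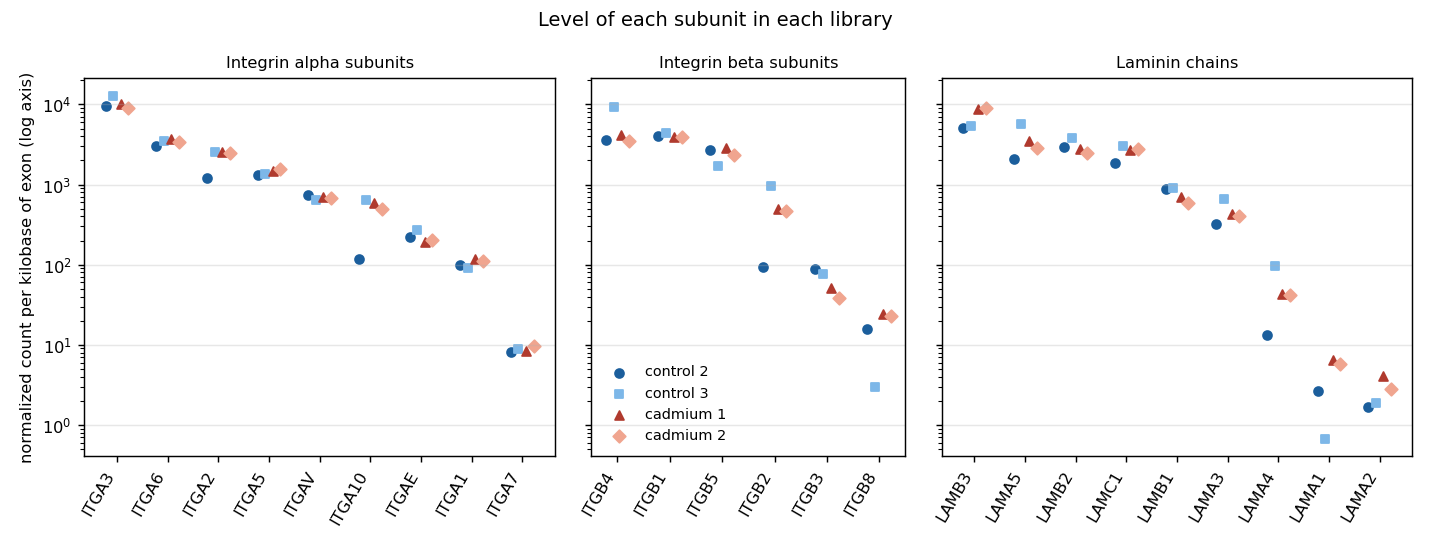
Normalized count per kilobase of exon, on a log axis, of the 24 subunits averaging at least 50 normalized counts, with 1 symbol for each of the 4 libraries. ITGA3 and LAMB3 were among the most abundant, and ITGB2, ITGA10, LAMA4 and ITGB8 show wide gaps between the control libraries.

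Of the 10 laminin chains 9 were tested, 4 with a log2FC above 0 and 5 below and a median of -0.25, and the beta chains held the 1 call. LAMB3 (ENSG00000196878, chromosome 1, 209614870 to 209652425, hg38, minus strand) encodes laminin β3, a chain of the laminin of hemidesmosomes. Its normalized count was 23647 in control 2 and 24789 in control 3, and 41110 and 41526 in cadmium 1 and cadmium 2. Both cadmium libraries were above both controls and the libraries of each group nearly coincided. The mean rose from 24218 ± 807 to 41318 ± 294 (SD, n = 2 each), which is 1.71-fold. Log2FC was 0.77 (SE 0.24) with a 95% interval of 0.31 to 1.23, and the DESeq2 adjusted p-value was 0.0986.

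The size of the LAMB3 difference was steady and its call was marginal. The log2 ratio lay between 0.73 and 0.81 whichever cadmium library was set against whichever control. Only 1 of the 225 called genes had a larger adjusted p-value. The adjusted p-value was 0.108 with TMM scaling, 0.166 without independent filtering, 0.620 in edgeR and 0.669 in limma, where the call was lost. It was 0.0616 with upper-quartile scaling, 0.0639 with halved counts and 0.0241 with genes of at least 10 counts in 2 libraries, where the call remained. With cadmium 1 or cadmium 2 left out the adjusted p-value was 1.00, at log2FCs of 0.77 and 0.76, and with control 2 or control 3 left out it was 1.44e-09 and 7.64e-11, at 0.74 and 0.79. Each of these fits assumes that the single library left in a group varies like the pair in the other group, and the control pair varied more than the cadmium pair.

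Promoters were searched for motifs of AP-1, the FOS and JUN factors of the stress response, and of MTF-1, the factor that senses metals. The windows of LAMB3, the called member, and of LAMA3, the other member with an AP-1 match, are printed here. RefSeq windows of 250 bases before a start site (GRCh38.p14) were found for 25 of the 35 genes, 32 windows in all. The AP-1 motif TGANTCA, searched on both strands, was in 2 of them (6.25%), and in 6.57% of all 35116 windows, so that the share among the members was near the background. The windows are shown without the 30 bases next to the start, with the motif in capitals. The LAMB3 window belongs to 1 of its 3 starts (chr1:209651405-209651624, minus strand), with the motif starting 67 bases before it. The LAMA3 window (chr18:23872770-23872989, plus strand) has the motif 125 and 69 bases before its start. That start lies inside the gene, which spans 23689453 to 23956222, and the counts of LAMA3 cover the whole gene.
LAMB3: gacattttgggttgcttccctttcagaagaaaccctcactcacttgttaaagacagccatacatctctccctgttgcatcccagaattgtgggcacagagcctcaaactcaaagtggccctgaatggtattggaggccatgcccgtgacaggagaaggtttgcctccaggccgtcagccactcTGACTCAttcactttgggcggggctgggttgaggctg
LAMA3: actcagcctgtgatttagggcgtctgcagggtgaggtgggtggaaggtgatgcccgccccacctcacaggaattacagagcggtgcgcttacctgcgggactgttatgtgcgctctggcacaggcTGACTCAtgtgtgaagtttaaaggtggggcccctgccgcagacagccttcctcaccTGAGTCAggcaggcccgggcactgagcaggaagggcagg

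The core of the metal response element bound by MTF-1, searched as TGCACNC and TGCGCNC on both strands, was in 8 of the 32 windows (25.0%) and in 24.8% of all windows, again near the background. Those 8 windows belonged to 7 genes, ITGA5, ITGA6, ITGAV, ITGB8, LAMA3, LAMB2 and LAMB3. These are matches of letters only. LAMA3, which encodes laminin α3, had normalized counts of 4666 and 9666 in control 2 and control 3, and of 6268 and 5804 in cadmium 1 and cadmium 2. Both cadmium libraries lay between the controls. Its log2FC was -0.25 with a 95% interval of -1.01 to 0.52 and, by DESeq2, an adjusted p-value of 1.00, and it was -0.68 without control 2 and 0.36 without control 3.

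The other beta chains were lower in cadmium-resistant cells without passing the test. LAMB1 (chromosome 7, 107923799 to 108003213), which encodes the β1 chain of most laminins outside hemidesmosomes, had normalized counts of 16549 and 16620 in the controls and of 12854 and 10971 in the cadmium libraries. The controls nearly coincided, and both cadmium libraries lay below them. Log2FC was -0.48 with a 95% interval of -0.97 to 0.01 and, by DESeq2, an adjusted p-value of 0.740. LAMB2, the gene of the β2 chain, had 20165 and 26383 normalized counts in the controls and 18850 and 17203 in the cadmium libraries, again with both below the controls. Its log2FC was -0.37 with a 95% interval of -0.91 to 0.17 and, by DESeq2, an adjusted p-value of 0.952.

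Set beside each other per kilobase of exon, the share of LAMB3 in the sum of the 3 beta chains was 57.1% and 53.0% in the controls and 72.0% and 74.3% in the cadmium libraries. The share of LAMB1 was 9.98% and 8.88% in the controls and 5.63% and 4.90% in the cadmium libraries. The ratio of LAMB3 to LAMB1 was thus 5.72 and 5.97 in the controls and 12.8 and 15.1 in the cadmium libraries. Levels of different genes are given per kilobase of all annotated exons merged, used in these cells or not, which came to 18592 bases for LAMB1 and 4647 for LAMB3.

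Among the laminin alpha chains, LAMA5 was the most abundant per kilobase and took between 86.1% and 88.2% of the sum of the 5 in every library. LAMA5 (chromosome 20, 62307955 to 62367312) encodes α5, the widespread alpha chain of adult epithelial basement membranes. Its normalized count was 30173 in control 2 and 81526 in control 3, and 49408 and 40356 in the cadmium libraries. The cadmium libraries lay inside a 2.70-fold gap between the controls. Log2FC was -0.32 with a 95% interval of -1.21 to 0.58, and it was 0.56 without control 3 and -0.86 without control 2, so its direction depended on the control.

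LAMA4, the gene of the α4 chain of vessels and mesenchyme, had 160 normalized counts in control 2, 1156 in control 3, and 522 and 505 in the cadmium libraries. The controls differed 7.23-fold, and the cadmium libraries were nearly equal and lay between them. Log2FC was -0.36 with a 95% interval of -2.72 to 2.00. It was 1.67 without control 3 and -1.17 without control 2.

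LAMA1 and LAMA2 were scarce chains with larger ratios. LAMA1 (chromosome 18, 6941742 to 7117797), the alpha chain of early embryonic basement membranes, had 45 and 10 reads in the controls and 102 and 92 in the cadmium libraries. All cadmium values were above all controls. Log2FC was 1.85 (SE 0.75), with an unadjusted p-value of 0.0133 and, by DESeq2, an adjusted p-value of 0.408, and it was 3.18 without control 2 and 1.16 without control 3. LAMA2, the alpha chain of muscle and nerve, had 47 reads in each control and 110 and 75 in the cadmium libraries. Both cadmium values were above the controls, at a log2FC of 0.96 (SE 0.55) and, by DESeq2, an adjusted p-value of 0.808. LAMA1 shares 10.3% of its exon bases with ENSG00000265069 on the other strand.

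Of the gamma chains measured here, LAMC1, which encodes the γ1 chain shared by most laminins, had normalized counts of 15546 and 25539 in the controls and 23036 and 23286 in the cadmium libraries. The cadmium libraries coincided within the control range. Its log2FC was 0.17 with a 95% interval of -0.47 to 0.81, and it was -0.14 without control 2 and 0.56 without control 3. LAMC3 had 2 and 0 reads in the controls and 4 and 13 in the cadmium libraries, too few for a fold change.

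**Figure D2:**
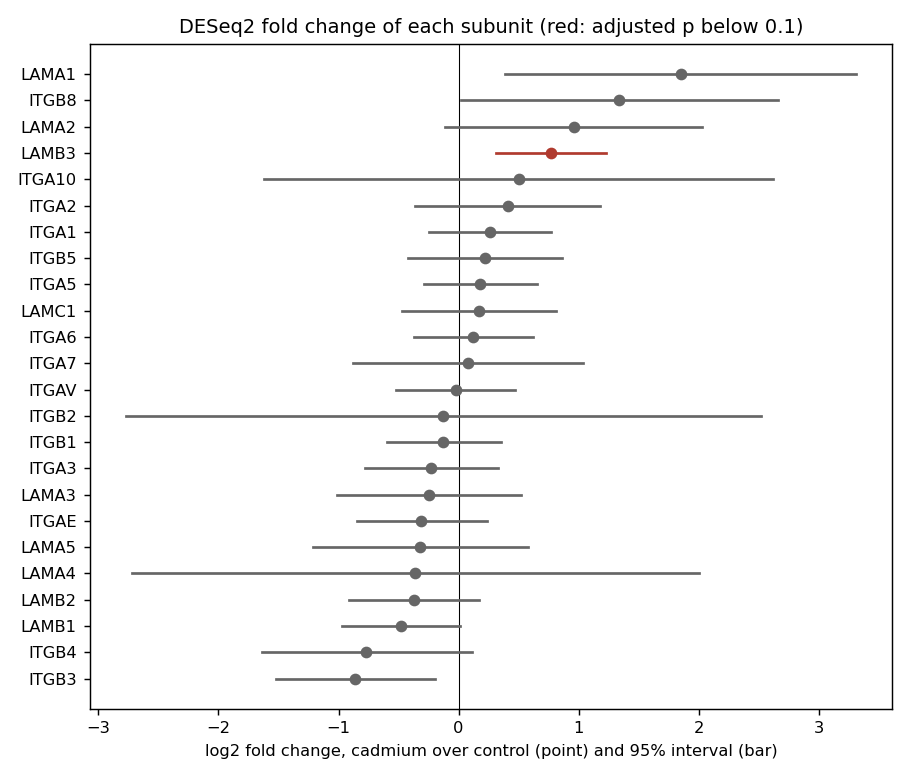
DESeq2 log2FC of cadmium over control (points) with the 95% interval (bars) for the 24 subunits averaging at least 50 normalized counts. LAMB3, in red, was called at 0.77, and the widest intervals belong to ITGB2, LAMA4 and ITGA10.

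The integrin beta subunits set which pairs a cell can form. Of the 8, all passed the filter on low counts, 4 had a log2FC above 0 and 4 below with a median of 0.05, and 0 were called by DESeq2 or edgeR. ITGB8 and ITGB3 had an unadjusted DESeq2 p-value below 0.05, and ITGB3 also an unadjusted edgeR p-value below it.

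ITGB1 (chromosome 10, 32887273 to 33005792), the common partner of α1, α2, α3, α5, α6 and α10, had the most reads of the beta subunits. Its normalized count was 58539 and 64993 in the controls and 56625 and 56605 in the cadmium libraries. Both cadmium libraries were slightly below the controls, at 0.917 of the control mean. Log2FC was -0.13 with a 95% interval of -0.60 to 0.35 and, by DESeq2, an adjusted p-value of 1.00.

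ITGB4 (chromosome 17, 75721328 to 75757818), which pairs with α6 alone and carries the long tail that binds the hemidesmosome plaque, had 24477 normalized counts in control 2, 63270 in control 3, and 27810 and 23786 in the cadmium libraries. Control 3 stood apart, 2.58-fold above control 2, and the cadmium libraries lay near control 2. Log2FC was -0.77 with a 95% interval of -1.64 to 0.11 and, by DESeq2, an adjusted p-value of 0.823. It was 0.06 without control 3 and -1.30 without control 2. Per kilobase, ITGB4 stood at 9358 and ITGB1 at 4463 in control 3, while in control 2, cadmium 1 and cadmium 2 the level of ITGB4 was 0.901, 1.06 and 0.905 times that of ITGB1.

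ITGB5, the β5 partner of αv, had normalized counts of 17841 and 11254 in the controls and 18581 and 15305 in the cadmium libraries. The groups overlapped, and the log2FC of 0.22 was 0.59 without control 2 and -0.09 without control 3. ITGB3, the β3 partner of αv in the receptor for vitronectin, had 554 and 480 normalized counts in the controls and 323 and 245 in the cadmium libraries. Both cadmium libraries were below both controls, at 0.550 of the control mean. Log2FC was -0.86 (SE 0.34), with an unadjusted p-value of 0.0102 and, by DESeq2, an adjusted p-value of 0.357. ITGB3 shares 35.7% of its exon bases with another gene on the same strand, ENSG00000259753, and reads in the shared bases were dropped as ambiguous.

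ITGB8, which pairs with αv in a receptor that activates latent TGF-β, had 253 reads in control 2 and 42 in control 3, and 371 and 354 in the cadmium libraries. All cadmium values exceeded the controls, and the controls differed 5.36-fold. Log2FC was 1.34 (SE 0.67), with an unadjusted p-value of 0.0472 and, by DESeq2, an adjusted p-value of 0.712. It was 3.01 without control 2 and 0.57 without control 3. ITGB6, the other TGF-β-activating partner of αv, had 8 to 20 reads in a library.

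ITGB2 (chromosome 21, 44885953 to 44931989) encodes β2, a subunit typical of leukocytes, where it pairs with αL, αM and αX. Its normalized count was 646 in control 2, 6538 in control 3, and 3388 and 3197 in the cadmium libraries. The controls differed 10.1-fold, the widest gap of any member averaging at least 50 normalized counts, and the cadmium libraries lay between them. Log2FC was -0.13 with a 95% interval of -2.77 to 2.52, and it was 2.34 without control 3 and -0.99 without control 2. Its usual partners were nearly absent, with at most 16 reads of ITGAL, 2 of ITGAM and 8 of ITGAX in a library. PTPRC, the common leukocyte antigen, had 2 and 135 reads in control 2 and control 3 and 37 and 43 in the cadmium libraries, and its part in the ITGB2 values was not tested. The antisense gene ITGB2-AS1, which shares 4.41% of the ITGB2 exon bases, had 85 and 579 reads in the controls and 440 and 382 in the cadmium libraries. Counting ignored strand, so reads in the shared bases were dropped as ambiguous and count for neither gene.

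Of the 17 integrin alpha subunits 12 were tested, 7 with a log2FC above 0 and 5 below and a median of 0.10. By DESeq2 0 were called and 0 reached an unadjusted p-value of 0.05, and edgeR gave the same counts.

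ITGA3 (chromosome 17, 50055968 to 50090481), whose product pairs with β1 to bind laminins with α3 and α5 chains, was the most abundant of all members per kilobase. Its normalized count was 93188 and 126404 in the controls and 99016 and 88358 in the cadmium libraries, with 1 cadmium library inside the control range. Log2FC was -0.23 with a 95% interval of -0.78 to 0.33, and its adjusted p-value of 1.00 became 0.00395 without control 2, at -0.43. Its ratio to ITGA6 per kilobase was 3.16 and 3.69 in the controls and 2.73 and 2.66 in the cadmium libraries.

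ITGA6 (chromosome 2, 172427354 to 172506459), the laminin-binding partner of β1 and β4, had normalized counts of 20093 and 23361 in the controls and 24718 and 22619 in the cadmium libraries. The groups overlapped, and the log2FC was 0.12 with a 95% interval of -0.37 to 0.62. ITGB4 differed 2.58-fold between the controls and ITGA6 1.16-fold, and the ratio of ITGA6 to ITGB4 per kilobase was 0.831 in control 2, 0.374 in control 3, and 0.900 and 0.963 in the cadmium libraries.

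The collagen-binding alpha subunits differed in how far the controls matched. ITGA2 (chromosome 5, 52989340 to 53094779) had 9534 normalized counts in control 2, 20260 in control 3, and 20174 and 19428 in the cadmium libraries. The cadmium libraries were thus level with control 3, and the log2FC of 0.41 was 1.04 without control 3 and -0.03 without control 2. ITGA10 (chromosome 1, 145891208 to 145910111), a collagen receptor best known from cartilage, had 730 in control 2, 4062 in control 3, and 3645 and 3126 in the cadmium libraries. This was the same order, and its log2FC of 0.50 was 2.20 without control 3 and -0.26 without control 2. ITGA1 had 1862 and 1663 in the controls and 2176 and 2046 in the cadmium libraries. Both cadmium libraries were above the controls, with a log2FC of 0.26 and a 95% interval of -0.25 to 0.77. ITGA1 shares 7.47% of its exon bases with ITGA2-AS1 on the other strand.

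The alpha subunits of the fibronectin receptors, ITGA5 and ITGAV, differed little between the controls, by 1.01-fold and 1.15-fold. ITGA5 (chromosome 12, 54395261 to 54419266), which pairs with β1 as the main fibronectin receptor, had normalized counts of 9803 and 9865 in the controls and 10783 and 11525 in the cadmium libraries. Both cadmium libraries were above the controls, with a log2FC of 0.18, a 95% interval of -0.29 to 0.65 and, by DESeq2, an adjusted p-value of 1.00. ITGAV, the αv partner of β1, β3, β5, β6 and β8, had 6165 and 5342 in the controls and 5688 and 5622 in the cadmium libraries. The cadmium libraries lay within the controls, and the log2FC was -0.02 with a 95% interval of -0.52 to 0.47. Upper-quartile scaling turned the ITGAV value to 0.04. Both intervals lie within a 2-fold change in either direction.

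The remaining tested alpha subunits were less abundant per kilobase than ITGA5 and ITGAV, although ITGAE averaged 221 per kilobase against 104 for ITGA1. ITGAE, the partner of β7 on lymphocytes of epithelia, had 1445 and 1782 normalized counts in the controls and 1275 and 1336 in the cadmium libraries, both below the controls, with a log2FC of -0.31 and, by DESeq2, an adjusted p-value of 1.00. Part of its exons (6.47%) is shared with HASPIN on the other strand. ITGA7, a laminin receptor of muscle, was level, with 73.8 and 79.7 in the controls and 75.6 and 86.9 in the cadmium libraries. ITGA2B, the platelet subunit, had 22 to 32 reads in a library.

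Another group stood at or near the floor. ITGA9 had 4 to 19 reads, ITGA11 4 to 15, and ITGB7, a lymphocyte beta subunit that shares 42.3% of its exon bases with ZNF740, 0 to 17. ITGA4, which shares 26.4% of its exon bases with CERKL, had 1 read in control 3 and 0 in the others, and ITGA8 had 0 in all libraries. Counting error alone lets a count of 0 stand for up to 3 reads, or 6 where mates are counted singly. The 0 reads of ITGB7 in control 2, against 17 in control 3, lay beyond that bound. ITGA9, ITGA11 and ITGB7 were tested between the groups, each at an adjusted p-value of 1.00 by DESeq2.

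**Figure D3:**
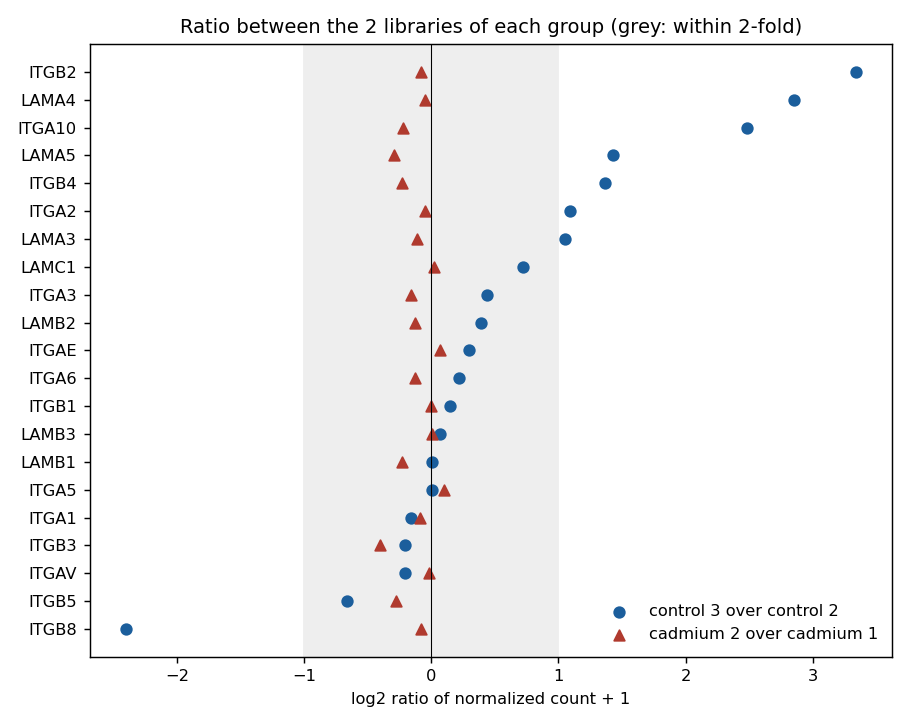
Log2 ratio between the 2 libraries of the control group (blue circles) and of the cadmium group (red triangles) for the 21 subunits averaging at least 100 normalized counts, with ratios within 2-fold in grey. ITGB2, LAMA4, ITGA10, LAMA5, ITGB4, ITGA2 and LAMA3 were over 2-fold higher in control 3, ITGB8 was over 2-fold lower there, and all cadmium ratios lay within 2-fold.

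The control libraries differed more from each other than the cadmium libraries did. Among the 21 members averaging at least 100 normalized counts, 8 differed over 2-fold between control 2 and control 3, or 38.1%, where 14.2% of all 12924 genes of that abundance did. Of these, 7 were higher in control 3 and 1, ITGB8, in control 2. Between the cadmium libraries 0 members differed over 2-fold, and the widest ratio was 1.32. The median absolute log2 ratio of the members was 0.44 for the controls and 0.10 for the cadmium pair, and that of all genes of that abundance was 0.39 and 0.11.

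Where the cadmium libraries fell relative to the controls also differed by gene. They were level with control 3 for ITGA2 and ITGA10, close to control 2 for ITGB4, between the controls for ITGB2, LAMA3, LAMA4 and LAMA5, and above both for ITGB8. Cadmium libraries both fell outside the control range for 9 of the 21 members, or 42.9%, against 41.5% of all genes of that abundance, a share near the background. LAMB3, ITGA1, ITGA5 and ITGB8 were above it, and ITGB1, ITGB3, ITGAE, LAMB1 and LAMB2 below it. Both lay within it for 8 members.

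Calls therefore depended on which control was used. Calls were also far more frequent over all genes with 1 control left, at 7.36% higher and 7.43% lower without control 2 and at 13.5% higher and 17.7% lower without control 3. Without control 2, of 24 members tested 4 (16.7%) were called higher, LAMB3, LAMA1, ITGB5 and ITGB8, and 9 (37.5%) were called lower, ITGA3, ITGAE, ITGB2, ITGB4, LAMA3, LAMA4, LAMA5, LAMB1 and LAMB2. Without control 3, of 28 members tested 8 (28.6%) were called higher, LAMB3, LAMC1, LAMA3, LAMA4, LAMA5, ITGA2, ITGA10 and ITGB2, and 2 (7.14%) lower, LAMB1 and ITGB3. LAMA3, LAMA4, LAMA5 and ITGB2 were thus called in opposite directions. The members called the same way with either control were LAMB3, higher, and LAMB1, lower, the latter at -0.48 and -0.49. Both fits share the cadmium pair, and for these genes the controls nearly coincided, at log2 ratios of 0.07 and 0.01. Agreement of the fits is therefore not independent support. The share of all tested genes called the same way with either control was not counted. With cadmium 1 left out 0 members were called, against 0.0807% of all tested genes higher and 0.0336% lower, and with cadmium 2 left out also 0, against 0.0686% and 0.0381%. In these fits only the group left with 2 libraries sets the spread.

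Each member was also set beside the genes around it on its chromosome. For each of the 24 members the 40 nearest expressed genes, 20 on each side, were taken, or 39 for LAMA1 near a chromosome end, and log2 ratios of the normalized count plus 1 were compared. For LAMB3 the neighbours had a median log2 ratio of cadmium over control of -0.05, against 0.77 for LAMB3 itself. On chromosome 7 the neighbours of LAMB1 had a median of -0.19, against -0.48 for LAMB1, so that LAMB1 was 0.29 below the genes around it. ITGB8, on the other arm of that chromosome, was at 1.33 among neighbours at -0.30. LAMA1 was at 1.82 among neighbours at -0.26, and ITGB3 at -0.86 among neighbours near 0.

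Between the controls the median ratio of the neighbours was smaller than the ratio of the most divided members. A median over many genes varies less than a single gene picked for its ratio, so such a gap was likely in advance. Ratios of single neighbours were not compared. The log2 ratio of control 3 over control 2 was 3.34 for ITGB2, 2.85 for LAMA4 and 2.48 for ITGA10, where the neighbours had medians of 0.14, 0.12 and 0.02. For LAMA1 it was -1.91 with neighbours at -0.50. ITGA5 went the other way, since it was level between the controls, at 0.01, among chromosome 12 neighbours that were 0.61 higher in control 3. ITGA6 was at 0.22 where its chromosome 2 neighbours were at -0.42.

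**Figure D4:**
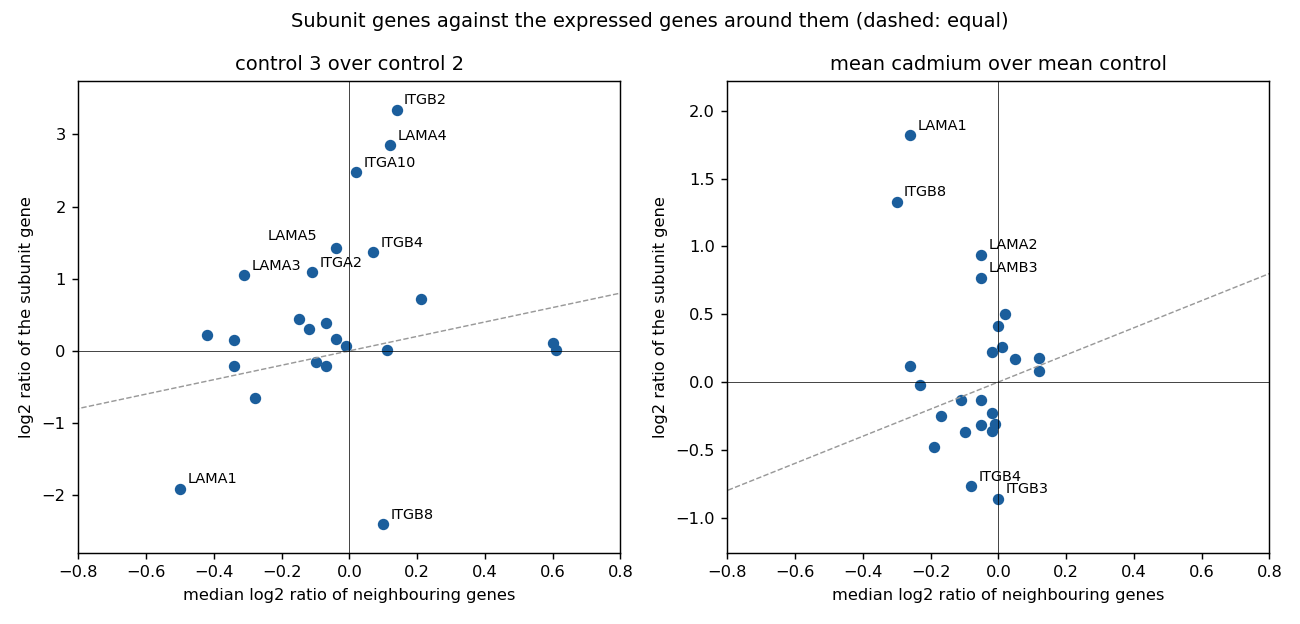
Log2 ratio of each of the 24 subunit genes (vertical axes) against the median log2 ratio of the expressed genes around it (horizontal axes), for control 3 over control 2 (left) and for mean cadmium over mean control (right), with equality dashed. Neighbour medians lay between -0.50 and 0.61 on the left and between -0.30 and 0.12 on the right. Medians over many genes vary less than single genes, so the wider range of the subunits was likely in advance.

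Genes that work with integrins and laminins were taken from 4 lists, 87 genes in all, of which 79 were tested. DESeq2 called 1 of the 79 higher and 1 lower, against 0.601% and 0.535% of all tested genes. An unadjusted DESeq2 p-value below 0.05 was reached by 10 of the 79, against 6.92% of all tested genes. COL17A1, the transmembrane collagen of hemidesmosomes that binds α6β4, rose, with 480 and 696 normalized counts in the controls and 1954 and 1440 in the cadmium libraries. Both cadmium libraries were over 2-fold above the higher control, at a log2FC of 1.53 (SE 0.34) and, by DESeq2, an adjusted p-value of 0.00220. HSPG2, which encodes perlecan, a heparan sulfate proteoglycan bound to laminin in basement membranes, fell from 20728 and 28077 to 11221 and 13530. The groups did not overlap, at a log2FC of -0.98 (SE 0.29) and, by DESeq2, an adjusted p-value of 0.0804. The edgeR test called neither, and 0 partner genes were called with either cadmium library left out.

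In the list of membrane partners and other laminin receptors, 15 genes were tested, with a median log2FC of -0.19, and COL17A1 was the 1 call. SLC3A2, the CD98 heavy chain that binds integrin beta tails, had 12305 and 12228 normalized counts in the controls and 19726 and 17991 in the cadmium libraries, with a log2FC of 0.62 and, by DESeq2, an adjusted p-value of 0.354. BCAM, a receptor for laminin α5, had 4377 and 6696 in the controls and 3089 and 2979 in the cadmium libraries, with a log2FC of -0.87 and an adjusted p-value of 0.270. Neither passed the test, although their groups did not overlap. Among the 9 tested basement membrane partners the median was -0.18, with HSPG2 as the 1 call.

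Of 36 tested cytoplasmic partners DESeq2 called 0, with a median log2FC of 0.05. An unadjusted DESeq2 p-value under 0.05 was reached by 5 of them, and by 6.92% of all tested genes. FERMT1, or kindlin-1, which activates integrins at their beta tails, had 1980 and 1332 normalized counts in the controls and 991 and 860 in the cadmium libraries, a log2FC of -0.84. FERMT3, the kindlin of blood cells, had 120 and 55.3 in the controls and 191 and 216 in the cadmium libraries, a log2FC of 1.21. Their DESeq2 adjusted p-values were 0.346 and 0.464. PTK2B, a focal adhesion kinase relative, had a log2FC of -1.51, with 995 and 195 normalized counts in the controls and 255 and 163 in the cadmium libraries, so that the groups overlapped. TNS1, the gene of tensin-1, had 2352 and 47.8 in the controls and 83.6 and 59.2 in the cadmium libraries, again overlapping, at an adjusted p-value of 0.612. Of 19 tested integrin ligands other than laminin DESeq2 called 0 and 1 had an unadjusted p-value below 0.05, ICAM2, a ligand of β2 integrins, with 186 and 240 in the controls and 340 and 400 in the cadmium libraries and an adjusted p-value of 0.538.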

How the data were processed

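RNA-seq libraries of control and cadmium-resistant MDA-MB-231 cells, 2 of each, were analysed. The sample labels list the molecule as genomic DNA, while their extraction protocol and the series type describe RNA. The authors trimmed adaptors with bbduk, used hisat2 for alignment (hg38) and featureCounts 2.0.1 for counting over Ensembl genes. The deposited file holds unnormalized counts. The header command left other options at their defaults, so strand was ignored, ambiguous reads were dropped and each mate was counted. That command names the control alignments A and B while their columns carry 2 and 3, so controls were assigned by group only. Gene symbols were matched for 61369 of 61541 genes.

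The count test was that of DESeq2 1.42.0 under R 4.3.3 (group as the single term, two-sided Wald test, Benjamini-Hochberg adjustment over all genes after independent filtering at a mean normalized count of 7.69, threshold 0.1). The study names DESeq2 (another version) without these settings, which are the defaults of the tool. Normalized counts are counts divided by size factors (0.94 to 1.06). Alternatives were edgeR 4.0.16, voom in limma 3.58.1, upper-quartile and TMM factors, no filter, at least 10 counts in 2 libraries, halved counts, a threshold of 0.05 and leaving out each library. Scripts were tested on counts simulated from the fitted means and dispersions. With 0 genes changed, DESeq2 made 59 false calls among 33455 genes and edgeR made 10. With 200 genes changed 2-fold, DESeq2 recovered 42% of them with 69 false calls, and edgeR recovered 0.5% with 7. A lack of edgeR calls therefore says little about changes of 2-fold or less. The members and lists were chosen with earlier results of these data known. All members were named, those averaging at least 50 normalized counts with every library. From partner lists, called genes and up to 4 others with the lowest unadjusted p-value below 0.05 were named. Promoter sequences came from RefSeq (GRCh38.p14). Plots used Python 3.11.15. Intervals cover the fit or counting error only. A listed cell type marker is not reported here.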

Additional observations from a re-analysis of the deposited data

How the results depend on the processing

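Over all genes, the 119 higher and 106 lower calls became 0 and 0 with edgeR and with limma, which gave 1506 and 1423 genes at an unadjusted p-value below 0.05, and ranged from 9 to 2678 and from 5 to 3511 with 1 library left out. Most calls came without control 3 (2678 and 3511) and without control 2 (1150 and 1161), where only the closely matched cadmium pair sets the spread. The 1 member called higher became 0 at a threshold of 0.05, with edgeR, limma, TMM scaling and no independent filtering, and ranged from 0 to 8 with 1 library left out. The 0 members called lower ranged from 0 to 9 in those fits, the latter without control 2. The 1 partner gene called higher became 0 with edgeR and limma, and the 1 called lower became 0 at a threshold of 0.05, with edgeR, limma, upper-quartile scaling and no independent filtering, and each ranged from 0 to 24 with 1 library left out.

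Among members the log2 fold change turned to 0.04 for ITGAV with upper-quartile scaling, and with limma to 0.72 for ITGB2 and 0.30 for LAMA4. The cause was not tested. With 1 library left out, direction changed for 11 members, over ranges of -0.03 to 1.04 for ITGA2, -0.02 to 0.17 for ITGA7, -0.26 to 2.20 for ITGA10, -0.14 to 0.08 for ITGAV, -0.99 to 2.34 for ITGB2, -1.30 to 0.06 for ITGB4, -0.09 to 0.59 for ITGB5, -0.68 to 0.36 for LAMA3, -1.17 to 1.67 for LAMA4, -0.86 to 0.56 for LAMA5 and -0.14 to 0.56 for LAMC1. Neighbour medians moved beyond the spread of their pairings in 4 of 48 alternatives, to values between -0.13 and 0.09. No paired analysis was possible because controls are numbered 2 and 3 in the table but 1 and 2 in the labels. With 2 libraries per group the intervals of members with unequal controls are wide, as from -2.77 to 2.52 for ITGB2.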

Other observations

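Partner genes of the integrins and laminins also split between the control libraries. Of 72 partner genes averaging at least 100 normalized counts, 22 differed over 2-fold between control 2 and control 3, where 14.2% of all genes of that abundance did. The genes named in these paragraphs were chosen after their values were seen. Integrin ligands split in both directions. LTBP1, with 1279 normalized counts in control 2 and 8558 in control 3, EDIL3 and FBN1 were among those over 2-fold higher in control 3. Matricellular ligands were among those higher in control 2. THBS2, which encodes thrombospondin-2, had 1557 normalized counts in control 2 against 2.13 in control 3, and 41.8 and 60.2 in the cadmium libraries. TNC, the gene of tenascin-C, had 10256 and 1634 in the controls and 7052 and 5610 in the cadmium libraries. ICAM1, the ligand of β2 integrins, had 13231 and 1712 in the controls, and 2794 and 2592 in the cadmium libraries. None of these 3 was called between the groups.

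Of 4 tensins, which bind integrin beta tails, TNS1 was over 2-fold higher in control 2, TNS2 and TNS4 were over 2-fold higher in control 3, and TNS3 differed by less, with 12450 and 16521 normalized counts. TNS1 had 2352 normalized counts in control 2 and 47.8 in control 3, with 83.6 and 59.2 in the cadmium libraries. TNS4, which lacks the actin-binding part, had 1693 in control 2 and 45283 in control 3, with 10213 and 9140 in the cadmium libraries. CD151, the tetraspanin that accompanies α3β1 and α6β4, had 11182 and 23705 in the controls and 17710 and 18115 in the cadmium libraries. NTN4, which encodes the laminin-related netrin-4, had 237 and 3997 in the controls and 3633 and 3268 in the cadmium libraries. The cadmium libraries were near control 3 for NTN4 and TNS1 and between the controls for TNS4 and CD151. What sets the control libraries apart was not tested.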
